A study of Mus musculus with 28 samples.

Results

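The genes of the proteasome were followed in mouse hearts after myocardial infarction (MI) at an age when the heart still regenerates and at an age when it no longer does. Every protein-coding gene whose symbol begins with Psm, a letter from a to g and a digit was taken, which gave 50 of 45318 gene rows, of which 21719 are protein coding. Of these 50, 49 encode subunits, assembly chaperones, activators or an inhibitor of the proteasome. The remaining gene, Psmc3ip, shares only its name with the ATPase genes and encodes a cofactor of meiotic recombination. Another 4 rows with such names are pseudogenes and were not taken.

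The hearts came from male Hsd:ICR(CD-1) mice operated at an age of 7 days or 1 day. MI was induced by ligation of the left anterior descending coronary artery (LAD), and sham-operated mice served as controls. RNA was sequenced from left ventricle tissue, 3 or 21 days after the operation. The paper places the 21-day RNA samples distal to the ischemic insult, and its main text states no such site for the 3-day RNA. The 4 groups of the 3-day follow-up were 7d-MI + 3, 7d-SHAM + 3, 1d-MI + 3 and 1d-SHAM + 3, with 4 mice each. The 4 groups of the 21-day follow-up were 7d-MI + 21, 7d-SHAM + 21, 1d-MI + 21 and 1d-SHAM + 21, with 3 mice each. The follow-ups were sequenced with different library kits and instruments, so no level was compared between them. All animals were of a single outbred stock without a transgene, and each library is 1 mouse.

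The proteasome is the protease that degrades ubiquitinated proteins. Its barrel, the 20S core, is built from outer rings of alpha subunits (Psma) and inner rings of beta subunits (Psmb), and the 19S cap at its ends recognises, unfolds and feeds in the substrates with its ATPases (Psmc) and its other subunits (Psmd). Psmb6, Psmb7 and Psmb5 encode the catalytic subunits of the constitutive form. In cells exposed to interferon gamma, and in leukocytes at rest, these are replaced by Psmb9, Psmb10 and Psmb8 in newly built cores, which are then called immunoproteasomes and favour peptides that fit MHC class I molecules. Interferon gamma also induces Psme1 and Psme2, whose products form the activator PA28 alpha/beta. Transcription of the constitutive genes is raised by Nfe2l1 when the proteasome is inhibited, through antioxidant response elements. Cardiomyocytes are rich in constitutive proteasomes, which with the muscle ubiquitin ligases turn over the contractile proteins.

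The promoters of the catalytic genes Psmb5, Psmb6 and Psmb10 and of Psme1 are shown. For Psmb8 and Psmb9 the 250 bases before the start lie wholly in annotated exons. The sequences are from RefSeq on build GRCm38.p6, 5′ to 3′ on the gene's strand, restricted to bases before the start that lie in no annotated exon. Capitals mark the letters TGACNNNGC, the core of the antioxidant response element.

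Psmb5, chr14:54618023-54618245, minus strand: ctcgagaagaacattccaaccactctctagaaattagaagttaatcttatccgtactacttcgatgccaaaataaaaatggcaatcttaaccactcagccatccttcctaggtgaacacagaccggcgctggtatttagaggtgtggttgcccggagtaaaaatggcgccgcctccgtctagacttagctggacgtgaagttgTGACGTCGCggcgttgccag
Psmb6, chr11:70525107-70525356, plus strand: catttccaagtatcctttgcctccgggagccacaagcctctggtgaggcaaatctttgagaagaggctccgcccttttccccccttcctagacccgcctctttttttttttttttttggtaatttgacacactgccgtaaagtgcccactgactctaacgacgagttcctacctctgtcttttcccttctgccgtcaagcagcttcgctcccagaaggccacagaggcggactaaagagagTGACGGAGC
Psmb10, chr8:105938445-105938642, minus strand: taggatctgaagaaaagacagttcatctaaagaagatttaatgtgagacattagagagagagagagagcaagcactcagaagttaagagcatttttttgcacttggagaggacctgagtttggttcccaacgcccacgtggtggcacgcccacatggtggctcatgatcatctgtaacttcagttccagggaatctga
Psme1, chr14:55578249-55578359, plus strand: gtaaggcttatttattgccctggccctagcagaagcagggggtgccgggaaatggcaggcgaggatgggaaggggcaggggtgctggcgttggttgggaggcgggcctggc

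In the 250 bases before the start, searched on both strands, TGACNNNGC was present in Psmb5 and Psmb6 and absent in Psmb8, Psmb9 and Psmb10. Psmb7 had no entry in the promoter table. Over the 41 proteasome genes with an entry, 5 held TGACNNNGC (12.2%), against 11.5% of 27025 genes. The core of the interferon-stimulated response element, GAAANNGAA, was found in 3 of the 41 (7.32%, against 8.18% of all genes). The core of the gamma-activated site, TTCNNNGAA, was found in Psmb8 and Psmg1 (4.88%, against 8.13%). In Psmb8 the match was TTCCCAGAA, 97 to 89 bases before the start on chromosome 17. CCAAT was present in 14 of the 41 (34.1%, against 37.5%). These motifs were therefore about as frequent in proteasome promoters as in all promoters, and a match is a description of the letters only.

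The 3-day libraries held 33077962 to 51942648 counts and the 21-day libraries 40514177 to 168550985. Of these, 77877 to 139911 counts per library fell on the 50 genes at 3 days and 22517 to 490349 at 21 days. Ribosomal RNA took up to 0.258% of counts at 3 days and 0.750 to 78.1% at 21 days. Mitochondrial transcripts took 40.3 to 43.3% in 7d-MI + 3 against 54.9 to 61.0% in 7d-SHAM + 3. Levels are given as CPM, counts scaled to a common library total with trimmed-mean (TMM) factors within a follow-up, and levels of different genes are compared only per kilobase of length. The summed level of 6 cardiomyocyte markers was high in every group, with a lowest library of 7370 CPM. Several libraries stood apart. Replicates 1 and 3 of 7d-SHAM + 3 had the interferon-induced factor Irf1 at 17.8 and 9.42 CPM, against 3.84 and 3.53 CPM in replicates 2 and 4. Replicate 3 of 7d-MI + 3 was the lowest of its group in 13 of 18 tested genes of the 20S core. Replicate 1 of 7d-SHAM + 21 was the highest of its group in 34 of 49 proteasome genes. Main results that rest on these libraries are given with and without them. The library names carry prefixes whose meaning is not given, and no prefix is shared by a pair of groups, so group and prefix cannot be told apart.

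At 3 days the ATPase ring of the cap made up a median of 25.3% of the summed level of all proteasome genes per kilobase, the alpha ring 22.4% and the other cap subunits 15.6%. Per kilobase, Psma4, an alpha subunit, had the highest median level over the 16 libraries (131 CPM per kb), followed by the ATPase gene Psmc1 (127), Psmb7 (111), Psmc6 (95.5) and Psmb1 (77.7). The ranges of these neighbours over libraries overlapped. The immunoproteasome genes Psmb8 (0.663 CPM per kb) and Psmb9 (0.646) lay near the bottom of the order, and Psmb10 (7.08) lay between Psmg2 and Psme2. Together the 3 immunoproteasome genes made up a median of 0.70% of the summed level of all proteasome genes per kilobase (0.384 to 1.25%), against 11.5% for Psmb5, Psmb6 and Psmb7. Psmb8 and Psmb9 had the widest ranges of the 48 tested genes, with a highest library 9.04 and 10.2 times the lowest, whereas Psmb1 had the narrowest, at 1.5 times. Psmb11, the thymus-specific catalytic subunit, had 0 to 0.649 CPM and did not pass the filter on low counts. The testis form of an alpha subunit, Psma8, had 1.03 CPM per kb. Psmc3ip, the gene that is no proteasome gene, had 4.17 to 5.08 CPM in 7d-MI + 3 against 3.64 to 5.36 CPM in 7d-SHAM + 3, and 6.18 to 8.64 CPM in 1d-MI + 3 against 11.4 to 14.5 CPM in 1d-SHAM + 3.

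After infarction at the age of 7 days, genes of the 20S core and both PA28 alpha/beta genes were lower than in shams at 3 days. There 2 cap subunits and the activator Psme3 were higher. The calls of Psme2, of these cap subunits and of genes of the alpha ring were lost in several of the fits given below. Of 48 proteasome genes tested in 7d-MI + 3 against 7d-SHAM + 3, 13 fell and 3 rose at an edgeR adjusted p below 0.05. Over all 20345 genes tested, 14.2% fell, 19.8% rose and 34.0% changed in either direction, so the share called was close to the background while the split leaned towards lower values. The median log2 fold change of the 48 genes was -0.24, against 0.08 over all genes tested, and 37 of the 48 were below 0. For 16 of the 48 the groups did not overlap, against 37.4% of all genes. In bulk tissue, fewer cells of a type and less RNA per cell cannot be told apart.

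Within the 20S core all 18 tested genes were lower in 7d-MI + 3, 9 of them called, with a median log2 fold change of -0.36. Across other scalings, filters and tools between 16 of 19 and 18 of 18 were lower. The alpha ring held 5 of these calls among its 8 genes. Psma7 had 49.6, 42.0, 33.0 and 46.5 CPM in 7d-MI + 3 against 57.9, 63.5, 60.2 and 58.7 CPM in 7d-SHAM + 3, a log2 fold change of -0.49 (SE 0.13, edgeR adjusted p = 0.00675). Psma4, the most abundant, had 276, 176, 126 and 226 CPM in 7d-MI + 3 against 306, 316, 299 and 279 CPM in 7d-SHAM + 3 (log2 fold change -0.58, SE 0.19, adjusted p = 0.0202). Every 7d-MI + 3 library lay below every 7d-SHAM + 3 library for both genes, and the third 7d-MI + 3 library was lowest for each. Psma2 (-0.47), Psma5 (-0.41) and Psma1 (-0.35) fell as well, Psma5 with overlapping groups. In the beta ring Psmb1 (-0.33) and Psmb4 (-0.35), which carry no catalytic site, fell.

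Among the catalytic subunits, the constitutive trypsin-like subunit Psmb7 and its immunoproteasome counterpart Psmb10 fell together. Psmb7 had 105, 78.0, 68.3 and 99.8 CPM in 7d-MI + 3 against 148, 143, 126 and 134 CPM in 7d-SHAM + 3. The fitted log2 difference was -0.65 (SE 0.14, edgeR adjusted p = 0.00122). Psmb10 had 5.94, 6.15, 8.15 and 5.77 CPM in 7d-MI + 3 against 13.6, 15, 13.7 and 13.4 CPM in 7d-SHAM + 3. At -1.10 on the log2 scale (SE 0.21, adjusted p = 0.000305), it changed most in size among the 48 genes. Neither gene's groups overlapped. Psmb7 shares 33.4% of its exon length with Nek6 on the opposite strand, and the strand setting of the counting is not given, so reads from the pair cannot be told apart there.

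The other catalytic genes did not pass the test in this comparison. Psmb5, the chymotrypsin-like subunit, had 4.60, 5.92, 4.11 and 5.42 CPM in 7d-MI + 3 against 5.57, 7.43, 8.09 and 7.65 CPM in 7d-SHAM + 3 (log2 fold change -0.52, adjusted p = 0.0885). Psmb6, the caspase-like subunit, had 57.5, 65.3, 56.4 and 66.8 CPM in 7d-MI + 3 against 61.1, 74.9, 73.2 and 78.8 CPM in 7d-SHAM + 3 (-0.23, adjusted p = 0.319). Both sets of values overlapped. Psmb8 had 3.94, 3.21, 1.96 and 2.86 CPM in 7d-MI + 3 against 6.12, 1.67, 4.61 and 1.57 CPM in 7d-SHAM + 3 (-0.22, SE 0.37, adjusted p = 0.702). Psmb9 had 3.64, 3.62, 2.66 and 2.13 CPM in 7d-MI + 3 against 14, 1.61, 7.32 and 2.17 CPM in 7d-SHAM + 3 (-1.06, SE 0.61, adjusted p = 0.212). The sham values of Psmb8 and Psmb9 fell into a high pair, replicates 1 and 3, and a low pair, replicates 2 and 4, with the 7d-MI + 3 libraries between them or near the low pair. Without replicates 1 and 3, an alternative chosen after seeing the data, the log2 fold changes turned to 0.89 for Psmb8 (adjusted p = 0.116) and 0.68 for Psmb9 (adjusted p = 0.413). Psmb10 showed no such split among the shams. Psmb8 shares 18.2% of its exon length with Gm20496 and Psmb9 shares 5.79% with Tap1, on opposite strands.

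**Figure D1:**
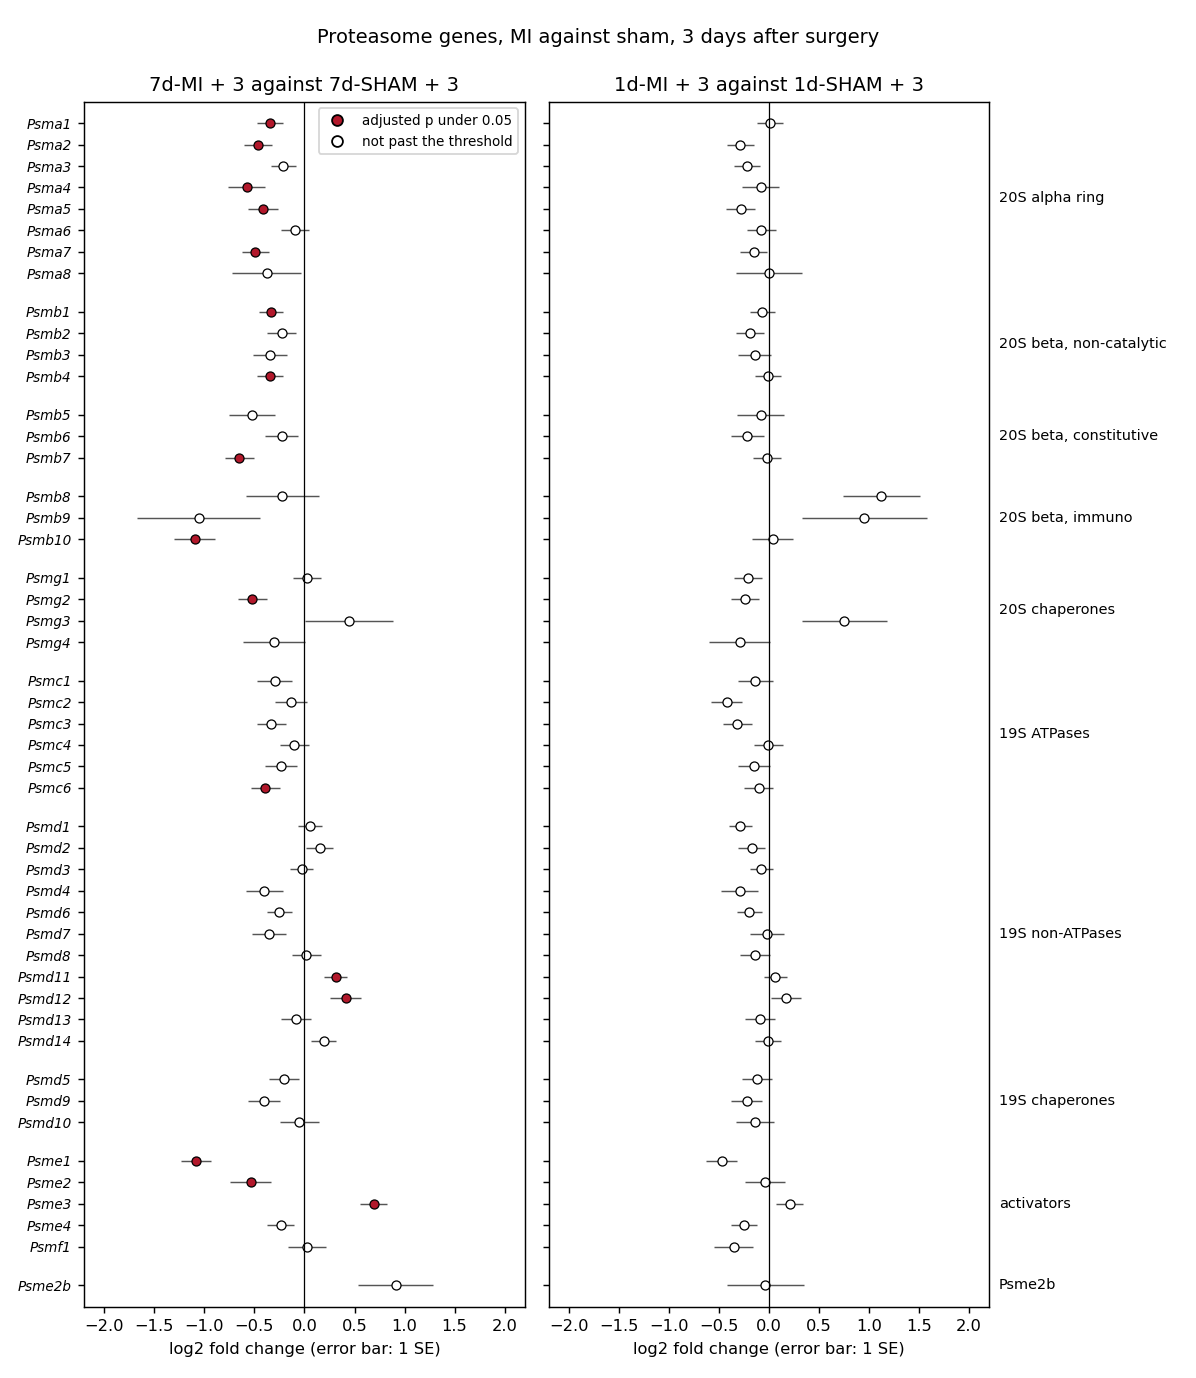
Log2 fold changes (x axis, with SE) of the 48 tested proteasome genes, grouped by class down the page, for 7d-MI + 3 against 7d-SHAM + 3 (left) and 1d-MI + 3 against 1d-SHAM + 3 (right); filled red points passed an edgeR adjusted p of 0.05. On the left all 18 genes of the 20S core lie below 0 and 16 genes are filled, and on the right no gene is filled.

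The activators moved in opposite directions. Psme1, the alpha subunit of PA28, had 119, 119, 108 and 122 CPM in 7d-MI + 3 against 275, 238, 255 and 222 CPM in 7d-SHAM + 3. The log2 fold change of -1.08 (SE 0.15, edgeR adjusted p = 1.71e-05) had the smallest adjusted p of the proteasome genes in this comparison. Psme2, the beta subunit, had 13.3, 12.4, 10.2 and 14.5 CPM in 7d-MI + 3 against 22.3, 17.4, 19 and 14.5 CPM in 7d-SHAM + 3 (-0.54, SE 0.20, adjusted p = 0.0459). The Psme1 groups were far apart and the Psme2 groups met near 14.5 CPM without overlap. Psme3, which encodes the nuclear activator PA28 gamma, had 24.3, 28.0, 31.5 and 25.1 CPM in 7d-MI + 3 against 16, 16.5, 17.9 and 17.1 CPM in 7d-SHAM + 3 (0.69, SE 0.13, adjusted p = 0.000432). Psme4, the activator PA200, had 160, 148, 168 and 138 CPM in 7d-MI + 3 against 200, 181, 165 and 179 CPM in 7d-SHAM + 3 and was not called. Psme2b, a retrogene copy of Psme2 whose reads cannot be cleanly assigned, had 4.01, 2.69, 3.11 and 3.34 CPM in 7d-MI + 3 against 3.09, 1.73, 1.69 and 0.516 CPM in 7d-SHAM + 3 (0.91, adjusted p = 0.0699).

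Of the 17 genes of the 19S cap, 2 rose and 1 fell, with a median log2 fold change of -0.10. The ATPase Psmc6 fell (-0.39, edgeR adjusted p = 0.0432), and all 6 ATPase genes were below 0 with a median of -0.27. The 11 other cap subunits had a median of 0.02. Psmd11, a scaffold subunit, had 41.8, 43.4, 47.2 and 44.1 CPM in 7d-MI + 3 against 33.0, 35.0, 36.0 and 38.1 CPM in 7d-SHAM + 3 (0.31, SE 0.11, adjusted p = 0.0381). Psmd12 had 38.2, 31.7, 36.6 and 28.8 CPM in 7d-MI + 3 against 24.9, 26.4, 23.8 and 26.7 CPM in 7d-SHAM + 3 (0.41, SE 0.15, adjusted p = 0.0441). Both rose in every 7d-MI + 3 library relative to every 7d-SHAM + 3 library. Psmg2, a chaperone of alpha ring assembly, fell to 6.87, 5.40, 7.05 and 6.29 CPM in 7d-MI + 3, against 8.70, 9.5, 8.91 and 9.63 CPM in 7d-SHAM + 3 (-0.52, SE 0.14, adjusted p = 0.00752). The 3 cap chaperones Psmd5, Psmd9 and Psmd10 were not called.

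Psmb10, Psmb7, Psme1 and Psme3 kept their call in all 11 alternative settings and in all 16 fits that left out a library. Upper-quartile scaling moved the split of the 48 genes to 1 higher and 20 lower. The count of called genes was 6 without 7d-MI + 3 replicate 3. It was also 6 without 7d-SHAM + 3 replicates 1 and 3 together, of which Psmb10, Psmb7, Psme1 and Psmg2 fell and Psme3 and Psme2b rose. These were 4 lower and 2 higher of 49 genes tested, against 7.14% and 10.8% of all genes, so the share lower was close to the background. The median log2 fold change of the 49 genes was -0.30 there. In that fit Psme2 was at -0.34 (adjusted p = 0.447), Psmd11 at 0.28 (adjusted p = 0.303) and Psmd12 at 0.36 (adjusted p = 0.268). Of the alpha ring, Psma2 was at -0.39 (adjusted p = 0.182) and Psma4 at -0.56 (adjusted p = 0.124). Psma5 was at -0.50 (adjusted p = 0.0963) and Psma7 at -0.51 (adjusted p = 0.0711). Psme2 kept its call in 9 of the 11 settings and 5 of the 16 fits that left out a library, Psmd11 in 5 and 9, and Psmd12 in 4 and 8. For the alpha ring these counts were 10 and 16 for Psma7, 9 and 14 for Psma2, 9 and 12 for Psma4, and 8 and 9 for Psma5.

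Markers of other cell types moved with these groups. All 6 macrophage markers and all 3 tested neutrophil markers rose, with summed levels of 246 to 418 CPM in 7d-MI + 3 against 83.5 to 109 CPM in 7d-SHAM + 3 for macrophages, and 28.9 to 59.8 CPM in 7d-MI + 3 against 2.17 to 4.01 CPM in 7d-SHAM + 3 for neutrophils. Of the 6 cardiomyocyte markers 4 fell, and their summed level was 13862 to 23484 CPM in 7d-MI + 3 against 23684 to 26558 CPM in 7d-SHAM + 3. Atrial markers summed to 729 to 2231 CPM in 7d-MI + 3 against 99.2 to 157 CPM in 7d-SHAM + 3. Of the 3 tested atrial markers only Nppa was called (list median log2 fold change 0.61), and Sln was at 0 in every 7d-MI + 3 library. The summed macrophage, neutrophil and atrial markers were thus higher, and the summed cardiomyocyte markers lower, in every 7d-MI + 3 library than in every 7d-SHAM + 3 library. The 5 fibroblast markers summed to 2279 to 2519 CPM in 7d-MI + 3 against 1441 to 1640 CPM in 7d-SHAM + 3, with 4 called higher and 1 called lower. T and NK cell markers summed to 1.43 to 2.70 CPM in 7d-MI + 3 against 1.70 to 3.45 CPM in 7d-SHAM + 3, with Nkg7 at 0 in 7d-SHAM + 3. The part of cell composition in the proteasome values was not tested.

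**Figure D2:**
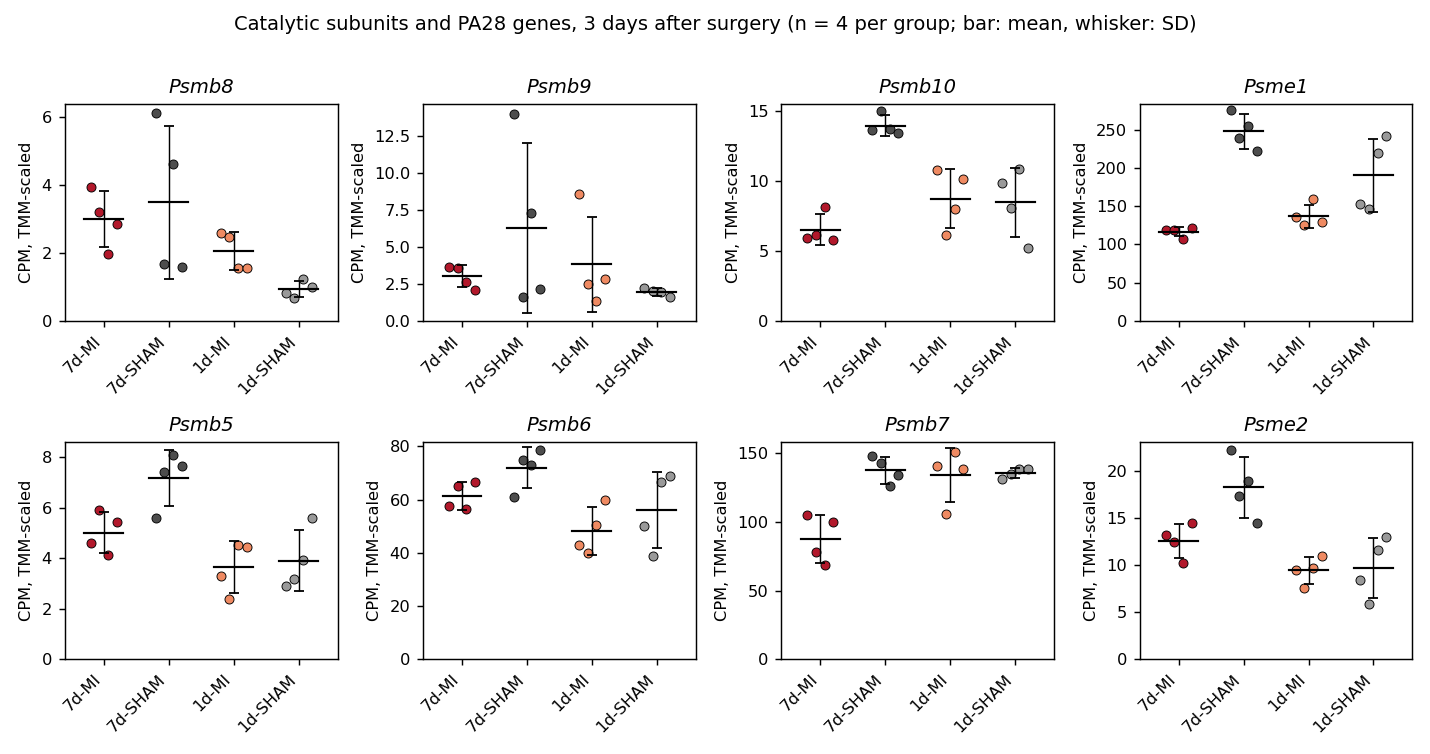
CPM (y axis) of Psmb8, Psmb9, Psmb10 and Psme1 (upper row) and Psmb5, Psmb6, Psmb7 and Psme2 (lower row) in each 3-day library, with bars at the group mean and whiskers of 1 SD (n = 4). Psmb10 (5.77 to 8.15 CPM) and Psme1 (108 to 122 CPM) in 7d-MI + 3 lie below all 7d-SHAM + 3 libraries, while Psmb8 and Psmb9 spread widely among the 7d-SHAM + 3 libraries.

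Infarction at the age of 1 day changed no proteasome gene past the threshold at 3 days. Of the 48 genes tested, 0 rose and 0 fell at an edgeR adjusted p below 0.05, against 4.10% and 4.36% of all genes (8.46% in either direction). At an unadjusted p below 0.05 there were 5 (1 higher, 4 lower), against 27.4% of all genes, and DESeq2 called 2 and limma-voom 0. The median log2 fold change was -0.13 (all genes 0.06), and 39 of 48 genes lay below 0, although under upper-quartile scaling only 21 did. The groups did not overlap for 1 gene, Psmb8, against 12.2% of all genes.

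Psmb8 had 2.58, 2.48, 1.57 and 1.56 CPM in 1d-MI + 3 against 0.836, 0.677, 1.24 and 0.999 CPM in 1d-SHAM + 3. At 1.12 on the log2 scale (SE 0.39, edgeR adjusted p = 0.0707), its change was the largest in size of the 48. It passed the threshold without 7d-SHAM + 3 replicates 1 and 3, a fit in which it was the sole gene called. Those libraries belong to neither group and act only through the shared fit. They were chosen after seeing the data, with Psmb8 itself high in them, so no conclusion is drawn from that call. Psmb9 had 8.59, 2.48, 1.37 and 2.86 CPM in 1d-MI + 3 against 2.25, 2.01, 1.99 and 1.60 CPM in 1d-SHAM + 3 (0.96, SE 0.62, adjusted p = 0.326). The high value of Psmb9 came from replicate 1 of 1d-MI + 3 alone. Psmb10 had 10.8, 6.10, 7.96 and 10.1 CPM in 1d-MI + 3 against 9.83, 8.03, 10.8 and 5.23 CPM in 1d-SHAM + 3, with overlapping groups. Psme1 had 135, 125, 159 and 129 CPM in 1d-MI + 3 against 152, 146, 220 and 242 CPM in 1d-SHAM + 3 (-0.47, SE 0.15, adjusted p = 0.0565). Psme2 had 9.51, 7.55, 9.73 and 11 CPM in 1d-MI + 3 against 8.44, 5.86, 11.6 and 13.0 CPM in 1d-SHAM + 3.

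The constitutive catalytic genes were not separated between the groups at this age. Psmb5 had 3.31, 2.37, 4.53 and 4.45 CPM in 1d-MI + 3 against 2.91, 3.17, 3.94 and 5.59 CPM in 1d-SHAM + 3. Psmb6 had 43.1, 39.8, 50.4 and 60.0 CPM in 1d-MI + 3 against 50.1, 39.0, 66.7 and 68.8 CPM in 1d-SHAM + 3. Psmb7 had 141, 106, 151 and 139 CPM in 1d-MI + 3 against 131, 135, 139 and 139 CPM in 1d-SHAM + 3. None of these differences was called, and the groups overlapped for all 3 genes. Macrophage markers summed to 60.3 to 152 CPM in 1d-MI + 3 against 32.0 to 48.4 CPM in 1d-SHAM + 3, and neutrophil markers to 17.7 to 22.8 CPM in 1d-MI + 3 against 3.17 to 6.70 CPM in 1d-SHAM + 3. Atrial markers summed to 2248 to 4172 CPM in 1d-MI + 3 against 35.6 to 313 CPM in 1d-SHAM + 3, with Myl7 and Nppa called among the 3 tested. The part of these cell types was not tested. Psmc3ip, which is no proteasome gene, fell (-0.70, SE 0.16, adjusted p = 0.0126).

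The MI effects at the 2 ages were compared directly by their difference. Of the 48 genes, 2 passed, Psmb10 at -1.14 (SE 0.29, edgeR adjusted p = 0.0132) and Psmb7 at -0.63 (SE 0.20, adjusted p = 0.0407), both with a more negative MI effect at 7 days. Over all genes tested 13.1% passed, 9.01% with a positive and 4.07% with a negative difference. In the 20S core 17 of 18 differences were below 0, with a median of -0.34, and in the 19S cap the median was 0.00 over 17 genes. The largest difference in size was that of Psmb9 at -2.01 (SE 0.87, adjusted p = 0.148), which rests on the split sham libraries. Psmb10 kept its call in all 16 fits that left out a library and Psmb7 in 2 of 16. Without 7d-SHAM + 3 replicates 1 and 3, Psmb10 was at -1.11 (adjusted p = 0.0574) and 0 genes were called.

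Infarcted hearts of the 2 operation ages were compared at 3 days. In 7d-MI + 3 against 1d-MI + 3, 9 of 48 genes were higher and 5 lower, against 19.4% and 23.5% of all genes (43.0% in either direction), so the share higher was at the background and the share lower below it. Upper-quartile scaling gave 6 higher and 18 lower, and moved the median of all genes to -0.37 where TMM gave -0.13. Of the 11 non-ATPase cap subunits 5 were higher (median log2 fold change 0.34), and in the 20S core 3 of 18 were lower and 0 higher (median -0.14). No overlap between the groups was seen for 18 genes, against 40.0% of all genes.

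Psme4 had the smallest adjusted p among these. It had 160, 148, 168 and 138 CPM in 7d-MI + 3 against 89.1, 88.5, 101 and 83.3 CPM in 1d-MI + 3 (log2 fold change 0.76, SE 0.13, edgeR adjusted p = 0.00018). Psmd1 and Psmd2, the largest scaffold subunits of the cap, were higher by 0.59 (SE 0.12, adjusted p = 0.000692) and 0.61 (SE 0.13, adjusted p = 0.00134). Psmd2 had 80.2, 72.1, 81.5 and 81.2 CPM in 7d-MI + 3 against 52.1, 41.5, 61.5 and 52.0 CPM in 1d-MI + 3. These libraries did not overlap. Psmd11 (0.50), Psmd3 (0.48), Psmd8 (0.50), Psme3 (0.57) and the ATPase Psmc2 (0.45) were also higher. Psme2b was higher by 1.60 (SE 0.38, adjusted p = 0.00267), the largest difference in size, at levels of 2.69 to 4.01 CPM in 7d-MI + 3 against 0.625 to 1.35 CPM in 1d-MI + 3. Among the lower genes Psma4 was at -0.87 (SE 0.19, adjusted p = 0.00113) and Psmb7 at -0.61 (SE 0.14, adjusted p = 0.00201), followed by Psma1 (-0.53), Psmg2 (-0.52) and Psmc6 (-0.44).

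Sham hearts gave the difference between operation ages without infarction. In 7d-SHAM + 3 against 1d-SHAM + 3, 6 of 48 genes were higher and 0 lower, against 8.12% and 12.2% of all genes (20.3% in either direction). The median log2 fold change was 0.15 (all genes -0.13), and the groups did not overlap for 11 genes, against 21.4% of all genes. Psme4 was higher by 0.75 (SE 0.13, edgeR adjusted p = 0.000567), at 200, 181, 165 and 179 CPM in 7d-SHAM + 3 against 121, 90.9, 90.4 and 127 CPM in 1d-SHAM + 3. Psmb5 was higher by 0.89 (SE 0.23, adjusted p = 0.0118) and Psmd3 by 0.44 (SE 0.12, adjusted p = 0.0144). Psme4 and Psmd3 were thus higher at the older operation age in shams and in infarcted hearts. The other calls were of interferon-induced genes, Psmb8 by 1.90 (SE 0.39, adjusted p = 0.00211), Psme2 by 0.92 (SE 0.21, adjusted p = 0.00409) and Psmb10 by 0.71 (SE 0.20, adjusted p = 0.0194). Psmb9 was at 1.67 (SE 0.63, adjusted p = 0.0722). Without 7d-SHAM + 3 replicates 1 and 3 the calls of Psmd3 and Psme4 alone remained, with Psmb8 at 0.80 (adjusted p = 0.204), Psme2 at 0.73 (adjusted p = 0.103), Psmb5 at 0.97 (adjusted p = 0.0535) and Psmb10 at 0.76 (adjusted p = 0.0853).

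The 7d-SHAM + 3 libraries in which Psmb8 and Psmb9 were high were those in which Nlrc5, Tap1 and Irf1, which respond to interferon, were high. Nlrc5, the transactivator of MHC class I genes, had 2.62, 1.72, 0.646 and 0.998 CPM in 7d-MI + 3 against 11.8, 0.186, 2.36 and 0.163 CPM in 7d-SHAM + 3. Nlrc5 thus separated the same sham replicates, 1 and 3 from 2 and 4, as Psmb8 and Psmb9 did. Tap1, the peptide transporter that shares a promoter region with Psmb9, had 4.36, 4.25, 2.51 and 4.01 CPM in 7d-MI + 3 against 15.3, 1.42, 6.86 and 1.79 CPM in 7d-SHAM + 3. Irf1 had 6.39, 4.31, 5.13 and 5.12 CPM in 7d-MI + 3 against 17.8, 3.84, 9.42 and 3.53 CPM in 7d-SHAM + 3. Replicate 1 was the highest 1d-MI + 3 library for Nlrc5 (9.36 CPM), Tap1 (7.33 CPM), Irf1 (10.8 CPM) and Psmb9. Nlrc5, Tap1, Irf1 and Psmb9 were called in neither MI comparison. Irf8, also an interferon gamma response factor, did not follow the split, and replicates 1 and 3 were its lower 7d-SHAM + 3 libraries. Psmb10 did not follow the split, and its log2 fold change between 7d-MI + 3 and 7d-SHAM + 3 was -1.12 without replicates 1 and 3 (adjusted p = 0.00337) where all libraries gave -1.10. For Psme1, replicates 1 and 3 were also the higher shams, and its log2 fold change was -0.97 without them (adjusted p = 0.00212) where all libraries gave -1.08.

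**Figure D3:**
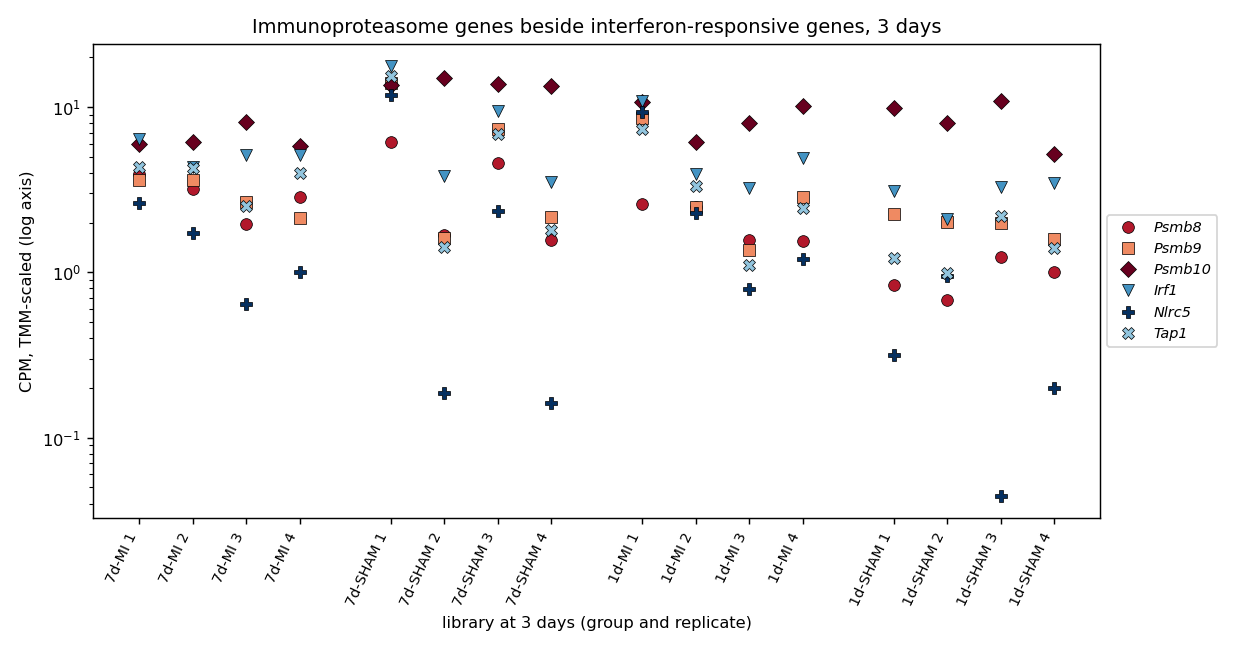
CPM (log y axis) of Psmb8, Psmb9, Psmb10, Irf1, Nlrc5 and Tap1 in each 3-day library by group. In 7d-SHAM + 3 replicates 1 and 3 lie above replicates 2 and 4 for every gene shown except Psmb10, where the 4 libraries lie between 13.4 and 15 CPM.

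The genes around the proteasome were described by lists, whose counts stand against 19.8% of all genes higher and 14.2% lower in 7d-MI + 3 against 7d-SHAM + 3. Of 16 proteasome partners without a Psm name, 2 rose and 3 fell in 7d-MI + 3 against 7d-SHAM + 3 (median log2 fold change 0.00). The proteasome-associated Zfand5 fell by 1.00 (SE 0.14, edgeR adjusted p = 2.03e-05), Sem1, a small cap subunit, fell by 0.71 (SE 0.16, adjusted p = 0.00212), and the ubiquitin shuttle Ubqln2 rose by 1.37 (SE 0.20, adjusted p = 2.96e-05). Of 7 genes for transcriptional control of the proteasome, 3 rose and 3 fell. Nfe2l1 had 81.1, 79.5, 109 and 86.1 CPM in 7d-MI + 3 against 118, 134, 127 and 138 CPM in 7d-SHAM + 3 (-0.54, adjusted p = 0.0104). The protease Ddi2, which activates the Nfe2l1 protein, rose (0.45, adjusted p = 0.00489) and Nfyc, a CCAAT-binding subunit, fell (-0.59, adjusted p = 0.00253). Of 6 tested interferon gamma response factors, 2 rose and 1 fell (median -0.74). Irf8, a factor of myeloid cells, had 14.4, 10.9, 9.74 and 11.3 CPM in 7d-MI + 3 against 2.85, 4.33, 3.87 and 4.07 CPM in 7d-SHAM + 3 (1.61, adjusted p = 7.24e-07), the receptor gene Ifngr1 rose by 0.42 (adjusted p = 0.0457) and Ifngr2 fell by 0.75 (adjusted p = 0.00515). Of 13 genes of MHC class I presentation, 2 rose, the chaperones Pdia3 (1.17, adjusted p = 2.22e-06) and Calr (0.73, adjusted p = 0.00433), with a list median of -0.11. Without 7d-SHAM + 3 replicates 1 and 3 the medians turned to 0.65 for the interferon gamma response factors and 0.66 for the MHC class I genes. In that fit 1 of 6 factors rose and 1 fell, and 1 of 13 MHC class I genes rose and 0 fell. Of 7 transcriptional control genes 0 rose and 1 fell, and of 16 partners 1 rose and 2 fell. Over all genes 10.8% rose and 7.14% fell in that fit.

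Genes that supply ubiquitin or tag muscle proteins with it changed as well. Of 6 ubiquitin and E1 genes, 1 rose and 2 fell. Uba6, an E1 enzyme, rose (0.78, edgeR adjusted p = 0.000392) and the ubiquitin gene Ubb fell (-0.65, adjusted p = 0.0453). Without 7d-SHAM + 3 replicates 1 and 3, 1 of these 6 genes rose and 0 fell. Of 12 muscle ubiquitin ligases 5 fell and 1 rose (median log2 fold change -0.31), against 14.2% and 19.8% of all genes. Trim63, known as MuRF1, had 55.3, 38.9, 45.9 and 50.9 CPM in 7d-MI + 3 against 102, 121, 111 and 153 CPM in 7d-SHAM + 3 (-1.35, SE 0.16, adjusted p = 3.23e-06). Trim55, known as MuRF2, had 54.7, 51.3, 61.5 and 54.1 CPM in 7d-MI + 3 against 150, 128, 136 and 156 CPM in 7d-SHAM + 3 (-1.36, SE 0.15, adjusted p = 1.58e-06). For both ligases, whose products act in striated muscle, every 7d-MI + 3 library lay below every 7d-SHAM + 3 library, and Cbl, a ligase of receptor tyrosine kinases, rose (1.28, adjusted p = 6.81e-05).

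The other 3-day comparisons gave calls mainly between ages. In 1d-MI + 3 against 1d-SHAM + 3 the sole call over the 6 lists was H2-K1, an MHC class I heavy chain, at 1.06 (SE 0.25, edgeR adjusted p = 0.014), and MHC class I genes had a median of 0.95. This was 1 of 13 MHC class I genes, against 4.10% of all genes higher and 4.36% lower (8.46% in either direction). The lists without a call had as their members of smallest p Ubqln1 (-0.35), Nfyc (-0.43), Nlrc5 (3.13, SE 1.33, adjusted p = 0.151), Uba1 (-0.36) and Trim55 (-0.46). Between the shams, 6 of the 13 MHC class I genes were higher in 7d-SHAM + 3 than in 1d-SHAM + 3 (median 0.91), led by Tapbp (1.15, adjusted p = 0.000852), H2-T23 (1.64) and Tap2 (1.88), together with 4 of 6 interferon gamma response factors (median 1.23), Ifngr2 (0.94) and Ifngr1 (0.68) among them, while Irf8 was lower (-0.71), against 8.12% of all genes higher and 12.2% lower. Without 7d-SHAM + 3 replicates 1 and 3 the counts were 1 of 13, Tapbp, and 2 of 6, Ifngr1 and Ifngr2, with medians of 0.35 and 0.15, against 2.65% of all genes higher. Nfe2l1 (0.79), Fbxo40 (0.90) and Trim54 (1.46) were also higher, and Uchl5 (-0.44), Akirin2 (-0.38), Nfya (-0.41), Nfyb (-0.49) and Trim55 (-0.64) lower. In 7d-MI + 3 against 1d-MI + 3, Ubqln2 (1.52), Ube3c (0.79), Ubqln1 (0.59), Ddi2 (0.80), Nfe2l1 (0.62), Nfe2l2 (0.65), Irf8 (0.85), Ifngr1 (0.78), Ifngr2 (0.54), Pdia3 (1.13), Calr (1.05), Tapbp (1.04), Uba1 (1.09), Uba6 (0.80) and Cbl (1.67) were higher and Trim55 (-1.54) and Trim63 (-0.76) lower. In full, 5 of 16 partners were higher and 3 lower, and 3 of 7 transcriptional control genes higher and 1 lower. Higher and lower were 3 and 0 of 6 interferon gamma response factors and 4 and 0 of 13 MHC class I genes. They were 3 and 0 of 6 ubiquitin and E1 genes and 4 and 2 of 12 ligases. Over all genes 19.4% were higher and 23.5% lower.

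The difference between the MI effects at 7 days and at 1 day passed for 2 of 16 partners, 2 of 7 transcriptional control genes, 1 of 6 interferon gamma response factors, 4 of 13 MHC class I genes, 2 of 6 ubiquitin and E1 genes and 3 of 12 ligases, against 13.1% of all genes. It was positive for Ubqln1 (0.70), Ubqln2 (1.24), Ddi2 (0.66), Nfya (0.68), Irf8 (1.56, edgeR adjusted p = 0.000546), Pdia3 (0.92), Calr (1.13), Uba6 (1.07), Uba1 (0.71) and Cbl (1.13). It was negative for Tapbpl (-1.56), Trim63 (-0.96) and Trim55 (-0.90). Without 7d-SHAM + 3 replicates 1 and 3 the differences of Ubqln2, Irf8, Pdia3, Uba6, Cbl and Trim63 passed.

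At 21 days no proteasome gene was called in any comparison. In 7d-MI + 21 against 7d-SHAM + 21, 0 of 49 genes passed at an edgeR adjusted p below 0.05, as did 0.00% of 24646 genes tested, with 4 of the 49 (2 higher, 2 lower) and 16.7% of all genes at an unadjusted p below 0.05. DESeq2 called 1 gene and limma-voom 0. The groups did not overlap for 3 genes, against 12.6% of all genes. The smallest p values belonged to Psmb11 (log2 fold change -4.90, SE 1.57, adjusted p = 0.226), Psmc2 (0.89, SE 0.34, adjusted p = 0.251) and Psmd4, a ubiquitin receptor of the cap (1.17, SE 0.46, adjusted p = 0.258). Psmb11 had 0.0132, 0 and 0.0198 CPM in 7d-MI + 21 against 0.0213, 0.358 and 0.844 CPM in 7d-SHAM + 21, so its change rests on traces of RNA. Libraries of a group varied more at 21 days (biological coefficient of variation 0.567) than at 3 days (0.331), and the number of mice, library kit and ribosomal RNA share differed as well.

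With all libraries, the core and the cap lay on different sides of 0 in this comparison. The 19S cap had a median log2 fold change of 0.53 with 15 of 17 genes above 0, and the 20S core a median of -0.22 with 14 of 19 below 0, against -0.13 over all genes. Replicate 1 of 7d-SHAM + 21 was the highest of its group in 34 of 49 proteasome genes. In 7d-MI + 21, replicate 1 was the lowest in 15 of 19 core genes. The core median without either library is not reported here, so no conclusion is drawn on the side of the core. Of the immunoproteasome genes, Psmb8 had 6.72, 12.2 and 8.87 CPM in 7d-MI + 21 against 10.3, 5.37 and 2.66 CPM in 7d-SHAM + 21. Psmb10 had 15.6, 20.3 and 19.7 CPM in 7d-MI + 21 against 22.1, 7.42 and 6.88 CPM in 7d-SHAM + 21. Psmb9 had 2.48, 3.25 and 4.11 CPM in 7d-MI + 21 against 4.57, 1.77 and 2.58 CPM in 7d-SHAM + 21. In each of these 3 genes the first 7d-SHAM + 21 library stood above the other shams. The constitutive Psmb5 had 4.15, 12.1 and 9.74 CPM in 7d-MI + 21 against 9.88, 17.7 and 7.77 CPM in 7d-SHAM + 21, Psmb6 had 29.2, 56.5 and 45.9 CPM in 7d-MI + 21 against 71.2, 49.4 and 48.9 CPM in 7d-SHAM + 21, and Psmb7 had 59.6, 123 and 134 CPM in 7d-MI + 21 against 139, 96.4 and 87.8 CPM in 7d-SHAM + 21. Psme1 had 28.1, 76.0 and 59.0 CPM in 7d-MI + 21 against 107, 38.3 and 28.1 CPM in 7d-SHAM + 21, and Psme2 had 14.6, 23.2 and 20.3 CPM in 7d-MI + 21 against 26.0, 11.2 and 8.44 CPM in 7d-SHAM + 21. All of these groups overlapped.

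Without 7d-SHAM + 21 replicate 1, 11 genes passed as higher in 7d-MI + 21 (Psma7, Psmb8, Psmb10, Psmc3, Psmc4, Psmc5, Psmd3, Psmd4, Psmd8, Psmd13 and Psmf1) and Psmb11 as lower. The median log2 fold change over all proteasome genes was then 0.46 and that of the 19S cap 0.96, against -0.26 over all genes. The count of calls at this age thus depended on a single sham library. Atrial markers summed to 2143 to 4518 CPM in 7d-MI + 21 against 88.4 to 970 CPM in 7d-SHAM + 21, and the part of this difference in the proteasome values was not tested.

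**Figure D4:**
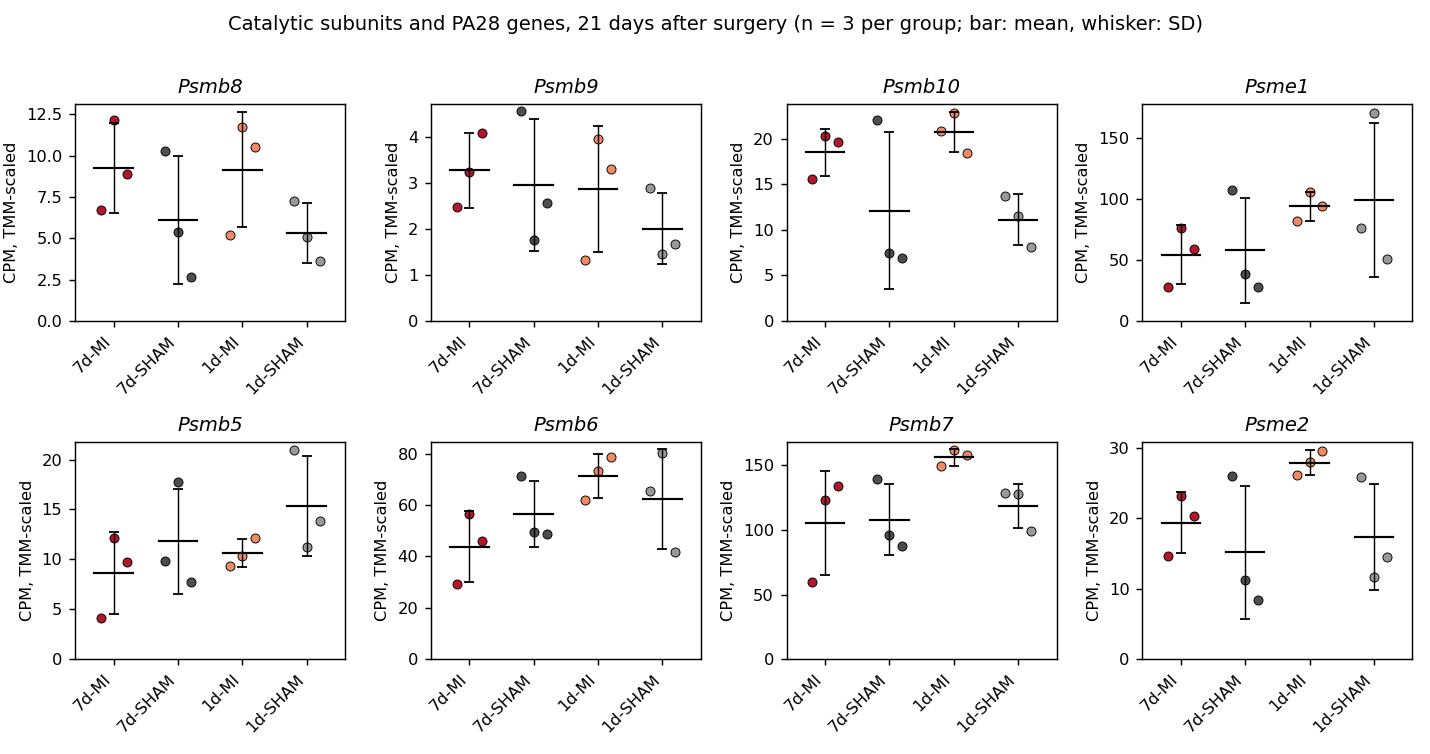
CPM (y axis) of the same 8 genes in each 21-day library, with bars at the group mean and whiskers of 1 SD (n = 3). Psmb10 lies at 18.5 to 22.8 CPM in 1d-MI + 21 against 8.14 to 13.7 CPM in 1d-SHAM + 21, and the 7d-SHAM + 21 libraries span 6.88 to 22.1 CPM.

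Infarction at 1 day left more proteasome genes without overlap at 21 days than the other comparisons, although no gene passed. In 1d-MI + 21 against 1d-SHAM + 21, 0 of 49 genes were called by edgeR, against 0.0162% of all genes, and 10 (8 higher, 2 lower) had an unadjusted p below 0.05, against 14.6% of all genes. DESeq2 and limma-voom also called 0. The groups did not overlap for 24 genes, 22 of them higher in 1d-MI + 21, against 27.4% of all genes in either direction and 15.6% higher. The median log2 fold change was 0.40 (all genes -0.11), with 0.63 in the 19S cap and 0.35 in the 20S core. Psmd8, a cap subunit, had 70.9, 73.1 and 58.3 CPM in 1d-MI + 21 against 24.2, 27.5 and 15.6 CPM in 1d-SHAM + 21 (1.59, SE 0.49, adjusted p = 0.284). Psmd13 had 38.7, 31.0 and 27.2 CPM in 1d-MI + 21 against 12.2, 14 and 14.8 CPM in 1d-SHAM + 21 (1.24, SE 0.40, adjusted p = 0.285). Psmc4 had 36.4, 35.0 and 29.2 CPM in 1d-MI + 21 against 10.5, 19.3 and 10.7 CPM in 1d-SHAM + 21 (1.31, SE 0.45, adjusted p = 0.29). Each of these infarcted libraries exceeded each sham library. The cardiomyocyte markers separated in the same way, at 20109 to 27020 CPM in 1d-MI + 21 against 10177 to 16468 CPM in 1d-SHAM + 21, and their part in the proteasome values was not tested. Psmd13 shares 10.1% of its exon length with Sirt3 on the opposite strand. Psma7 had 71.4, 87.0 and 78.8 CPM in 1d-MI + 21 against 35.7, 45.6 and 18.2 CPM in 1d-SHAM + 21 (1.25, SE 0.50, adjusted p = 0.307). Psmg4, a 20S assembly chaperone, ran the other way, with 9.84, 14.9 and 18.5 CPM in 1d-MI + 21 against 30.2, 31.5 and 28.8 CPM in 1d-SHAM + 21 (-1.07, SE 0.39, adjusted p = 0.295). The largest change in size was that of Psmb11 (-3.74, SE 1.47, adjusted p = 0.304), at 0 to 0.0462 CPM in 1d-MI + 21 against 0.138 to 0.726 CPM in 1d-SHAM + 21. Without 7d-SHAM + 21 replicate 1, which changes the shared estimate of the spread, Psma7, Psmc4, Psmd8 and Psmd13 passed.

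The catalytic genes were not called after infarction at 1 day. Psmb8 had 5.20, 11.7 and 10.5 CPM in 1d-MI + 21 against 7.25, 5.08 and 3.63 CPM in 1d-SHAM + 21, and Psmb9 had 1.33, 3.97 and 3.31 CPM in 1d-MI + 21 against 2.89, 1.45 and 1.68 CPM in 1d-SHAM + 21. Psmb10 had 20.9, 22.8 and 18.5 CPM in 1d-MI + 21 against 13.7, 11.6 and 8.14 CPM in 1d-SHAM + 21 (log2 fold change 0.90, SE 0.41, edgeR adjusted p = 0.332). The Psmb10 groups did not overlap and those of Psmb8 and Psmb9 did. Psmb5 had 9.38, 10.4 and 12.2 CPM in 1d-MI + 21 against 20.9, 11.2 and 13.9 CPM in 1d-SHAM + 21, Psmb6 had 62.1, 73.1 and 78.8 CPM in 1d-MI + 21 against 65.4, 80.2 and 41.6 CPM in 1d-SHAM + 21, and Psmb7 had 149, 162 and 158 CPM in 1d-MI + 21 against 128, 128 and 99.0 CPM in 1d-SHAM + 21. Psme1 had 82.0, 106 and 94.1 CPM in 1d-MI + 21 against 76.4, 170 and 50.9 CPM in 1d-SHAM + 21, and Psme2 had 26.1, 28.0 and 29.6 CPM in 1d-MI + 21 against 25.9, 11.7 and 14.4 CPM in 1d-SHAM + 21.

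The remaining 21-day comparisons gave no call either. In 7d-MI + 21 against 1d-MI + 21, 0 of 49 genes passed with edgeR (0.0325% of all genes) and 1 with DESeq2, and 2 had an unadjusted p below 0.05 (6.52% of all genes). The groups did not overlap for 10 genes, 9 of them lower in 7d-MI + 21, against 16.3% of all genes in either direction and 7.37% lower. The 20S core had a median log2 fold change of -0.47, with 16 of 19 genes below 0, and the 19S cap 0.05. Psmb1 had 26.9, 38.1 and 33.9 CPM in 7d-MI + 21 against 59.0, 58.2 and 61.7 CPM in 1d-MI + 21 (-0.86, SE 0.29, adjusted p = 0.518). Replicate 1 of 7d-MI + 21 was the lowest of its group in 15 of 19 core genes. In 7d-SHAM + 21 against 1d-SHAM + 21, 0 of 49 genes passed (0.00% of all genes) and 1 had an unadjusted p below 0.05 (1.79% of all genes), the chaperone Psmg3 (1.31, SE 0.49). The groups did not overlap for 3 genes, against 4.26% of all genes. The difference of the MI effects passed for 0 of 49 genes (0.00% of all genes), 0 at an unadjusted p below 0.05 (3.76% of all genes), with Psma8 largest in size (-1.37), and DESeq2 and limma-voom called 0 genes in either of these comparisons. The companion lists also had 0 calls in every 21-day comparison. In 7d-MI + 21 against 7d-SHAM + 21 the members of smallest p included H2-D1 (1.77, SE 0.36, adjusted p = 0.117), Akirin2 (-1.07), Nfe2l2 (0.96), Uba1 (0.81) and Fbxo40 (1.41).

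Setting each immunoproteasome gene against its constitutive counterpart within a library removes the scaling between libraries. The log2 ratio per kilobase of Psmb8 to Psmb5 was -2.42 ± 0.37 in 7d-MI + 3 against -2.92 ± 1.15 in 7d-SHAM + 3, and -2.48 ± 0.81 in 1d-MI + 3 against -3.68 ± 0.37 in 1d-SHAM + 3 (SD, n = 4). That of Psmb9 to Psmb6 was -5.35 ± 0.43 in 7d-MI + 3 against -5.0 ± 1.60 in 7d-SHAM + 3, and -4.94 ± 1.21 in 1d-MI + 3 against -5.77 ± 0.53 in 1d-SHAM + 3. That of Psmb10 to Psmb7 was -3.81 ± 0.50 in 7d-MI + 3 against -3.37 ± 0.11 in 7d-SHAM + 3, and -4.03 ± 0.26 in 1d-MI + 3 against -4.12 ± 0.48 in 1d-SHAM + 3. In 7d-MI + 3 the first ratio thus averaged higher than in 7d-SHAM + 3 and the other two lower, each within overlapping SDs. These shams were split, however, and against the mean of replicates 2 and 4 alone, at -3.86 for Psmb8 to Psmb5 and -6.32 for Psmb9 to Psmb6, both of these ratios were higher in 7d-MI + 3, while Psmb10 to Psmb7 (-3.35) stayed lower. The mean of the 3 pairs was -3.86 ± 0.25 in 7d-MI + 3 against -3.76 ± 0.90 in 7d-SHAM + 3, and -3.82 ± 0.66 in 1d-MI + 3 against -4.52 ± 0.39 in 1d-SHAM + 3. In 7d-SHAM + 3 this mean was -2.70 and -3.34 in replicates 1 and 3, above every 7d-MI + 3 library, and -4.53 and -4.48 in replicates 2 and 4, below every 7d-MI + 3 library. At 3 days the constitutive gene thus exceeded its counterpart in every pair on average, and whether the mean of the pairs was higher or lower in 7d-MI + 3 than in 7d-SHAM + 3 depended on replicates 1 and 3. The immunoproteasome genes made up 6.10 ± 1.37% of the summed level of the 6 genes in 7d-MI + 3 against 8.04 ± 1.25% in 7d-SHAM + 3 (7.0% over replicates 2 and 4), and 5.81 ± 1.33% in 1d-MI + 3 against 4.94 ± 1.33% in 1d-SHAM + 3.

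At 21 days the ratios were on average shifted towards the immunoproteasome in infarcted hearts, as a description without a test. The mean of the 3 pairs was -2.88 ± 0.34 in 7d-MI + 21 against -3.81 ± 0.64 in 7d-SHAM + 21, and -3.56 ± 0.40 in 1d-MI + 21 against -4.20 ± 0.20 in 1d-SHAM + 21 (SD, n = 3). Replicate 1 of 7d-SHAM + 21, at -3.08, stood above the other shams, at -4.30 and -4.04. It also lay above replicate 2 of 7d-MI + 21, at -3.13, so these groups overlapped. Replicate 1 of 7d-MI + 21 had the highest mean of its group, at -2.49, and the highest share, at 18.2%. That library was the lowest of its group for Psmb5, Psmb6 and Psmb7, and also for Psmb8, Psmb9 and Psmb10. The lowest 1d-MI + 21 library, at -3.97, was barely above the highest 1d-SHAM + 21 library, at -3.98. The ratio of Psmb10 to Psmb7 was -2.50 ± 0.44 in 7d-MI + 21 against -3.41 ± 0.59 in 7d-SHAM + 21, and -2.98 ± 0.15 in 1d-MI + 21 against -3.50 ± 0.19 in 1d-SHAM + 21. The ratio of Psmb8 to Psmb5 was -1.46 ± 0.45 in 7d-MI + 21 against -2.72 ± 0.98 in 7d-SHAM + 21, and -1.95 ± 0.52 in 1d-MI + 21 against -3.18 ± 0.40 in 1d-SHAM + 21. Both pairs were higher on average in MI hearts of either age. The share of the immunoproteasome genes was 14.3 ± 3.36% in 7d-MI + 21 against 8.14 ± 3.36% in 7d-SHAM + 21, and 10.3 ± 0.93% in 1d-MI + 21 against 7.00 ± 0.84% in 1d-SHAM + 21. Psmb9 over Psmb6 was -4.68 ± 0.35 in 7d-MI + 21 against -5.30 ± 0.42 in 7d-SHAM + 21, and -5.74 ± 0.69 in 1d-MI + 21 against -5.93 ± 0.70 in 1d-SHAM + 21. Macrophage markers summed to 297 to 310 CPM in 7d-MI + 21 against 151 to 212 CPM in 7d-SHAM + 21, and to 224 to 273 CPM in 1d-MI + 21 against 184 to 296 CPM in 1d-SHAM + 21. The part of these cells in the ratio was not tested.

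**Figure D5:**
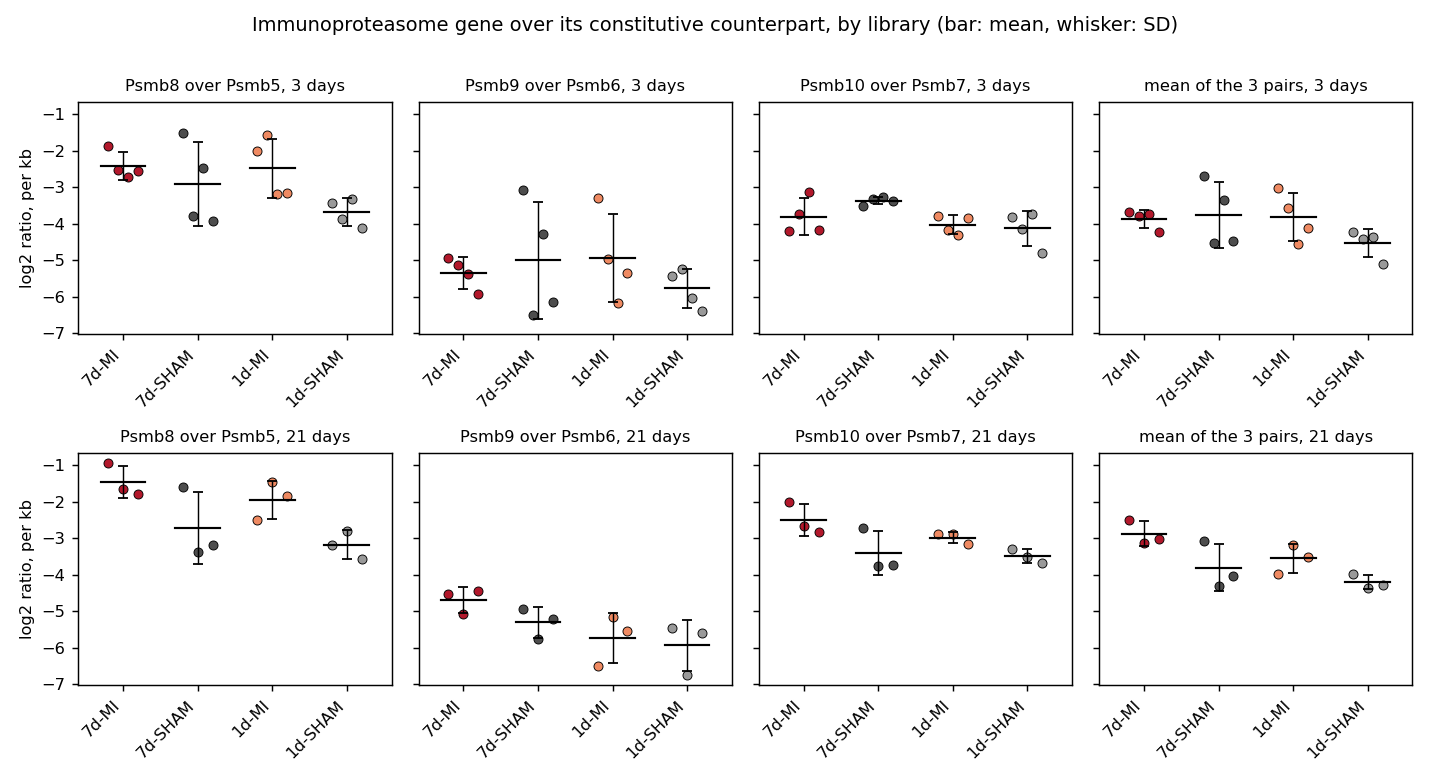
Log2 ratio per kilobase (y axis) of Psmb8 to Psmb5, Psmb9 to Psmb6, Psmb10 to Psmb7 and their mean in each library, for the 3-day and 21-day follow-ups, with bars at the group mean and whiskers of 1 SD. At 21 days the mean of the pairs averages -2.88 in 7d-MI + 21 against -3.81 in 7d-SHAM + 21, while at 3 days it averages -3.86 in 7d-MI + 3 against -3.76 in 7d-SHAM + 3.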

How the data were processed

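Left ventricle RNA of 28 mice was sequenced, 16 with TruSeq stranded total RNA libraries at 3 days and 12 with ScriptSeqV2 libraries at 21 days. The authors aligned the reads and deposited whole-number counts per Ensembl gene, with CPM (count over library total), RPKM and log2 values derived from them. The submitters' notes name TopHat2 2.0.11, Bowtie2 2.2.2, Cufflinks 2.2.1 and GRCm38 without roles, and the sources used here give no counting tool, strand setting or annotation release. The deposited log2 values were not used, and the RPKM values served only to recover gene lengths.

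Counts of 2 libraries deposited as 2 lanes were summed. Within each follow-up all 4 groups were fitted with edgeR 4.0.16 (R 4.3.3): filterByExpr (minimum count 10, minimum total count 15), TMM, robust quasi-likelihood F test, and Benjamini-Hochberg adjustment over all genes tested, with a threshold of 0.05. SEs were derived from the log2 fold change and its F statistic. Ratios added 0.5 counts. DESeq2 1.42.0 and limma 3.58.1 were alternatives. Scripts were tested on simulated data. Named genes were Psmb5 to Psmb10, Psme1 and Psme2, up to 8 called members of smallest p per direction, the largest change and members failing the filter; of each companion list, up to 3 called members, or the member of smallest p. Members and lists were chosen with earlier results of these data known. P-values measure the spread between mice of a group, and the small number of mice limits precision. Name prefixes are nested in groups, and at 3 days libraries of a prefix correlated at 0.20, so mice of a prefix may not be independent. Values of some members of the companion lists are not reported here.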

Additional observations from a re-analysis of the deposited data

Results flagged for a closer look

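Of 199 groups of 4 libraries checked at 3 days, 10 held a library far from the other 3 by Dixon's criterion, close to the 5% of groups that chance flags. In 7d-MI + 3, Psmb10 was high in replicate 3 (8.15 CPM, others 5.77 to 6.15), Psmd2 low in replicate 2 (72.1 CPM, others 80.2 to 81.5) and Psmb11 detected in replicate 3 alone (0.0784 CPM). In 7d-SHAM + 3, Psma2 was low in replicate 4 (52.6 CPM, others 63.3 to 65.2), Psmb10 high in replicate 2 (15 CPM, others 13.4 to 13.7), and both Psmd1 (114 CPM, others 121 to 122) and Psmd14 (33.2 CPM, others 43.5 to 44.3) low in replicate 1. In 1d-MI + 3, Psma3 was low in replicate 2 (65.6 CPM, others 71.5 to 72.4) and Psmb11 low in replicate 3 (0.0397 CPM, others 0.548 to 0.649). In 1d-SHAM + 3, Psmc2 was low in replicate 2 (40.1 CPM, others 58.9 to 62.5).

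The MI effect differed between operation ages, by a test of the difference itself, for Psmb10 (log2 difference -1.14, edgeR adjusted p = 0.0132) and Psmb7 (-0.63, adjusted p = 0.0407) at 3 days. Neither passed with name prefixes as a random block or without 7d-SHAM + 3 replicates 1 and 3 (adjusted p = 0.0574 for Psmb10 and 0.199 for Psmb7), and Psmb7 passed in 2 of 16 fits that left out a library.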

How the results depend on the processing

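Among called proteasome genes at 3 days, 7d-MI + 3 against 7d-SHAM + 3 gave 16, and 25 with these groups alone, 6 when name prefixes entered limma-voom as a random block, 10 without a filter and 6 without 7d-SHAM + 3 replicates 1 and 3 together, a setting chosen after seeing the data. For 1d-MI + 3 against 1d-SHAM + 3 the count of 0 became 2 with DESeq2, 3 without a filter and 1 without those 2 sham libraries. For 7d-MI + 3 against 1d-MI + 3 the 14 became 22 at a mean count of at least 50 and 24 with upper-quartile scaling. Between shams the 6 became 12 with DESeq2, 3 with the prefix block and 2 without the sham pair. For the difference of the MI effects the 2 became 4 with DESeq2, 4 at a mean count of 50, 7 with upper-quartile scaling, 0 with the prefix block and 0 without the sham pair. Leaving out each library gave 6 to 16, 0 to 3, 14 to 18, 4 to 10 and 1 to 2 in these 5 comparisons. The causes were not tested.

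At 21 days DESeq2 called 1 gene in 7d-MI + 21 against 7d-SHAM + 21 and 1 in 7d-MI + 21 against 1d-MI + 21, and 3 passed in 1d-MI + 21 against 1d-SHAM + 21 with these groups alone. Leaving out each library gave 0 to 12 and 0 to 4 in the MI comparisons at 7 days and 1 day, and 0 in the other 3. Computed from summed levels, the log2 ratio of the immunoproteasome to the constitutive genes was -3.13 in 1d-MI + 21 and -3.74 in 1d-SHAM + 21. With the replicate block 0 genes were called in each 21-day comparison. Same-numbered libraries correlated at -0.19 to 0.54, above 0.1 in 6 of 15 pairs, so the numbers were not taken to pair the animals. No result changed direction past the threshold under the alternatives run. Depth limited Psmb11, with a level of 0 in some libraries.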
